A study of Mus musculus with 9 samples.

Results

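The serpins and the plasminogen system were followed as a set of 56 genes among the 33539 genes listed for mouse colon. Genes entered the set by name: every symbol of the Serpin clades a to i except those ending in -ps, which gave 49 genes (Serpina3h and Serpinb10 among them are annotated as types of pseudogene), and the 7 genes Plat, Plau, Plaur, Plg, F3, Thbd and Procr. The 9 libraries came from whole colon tissue of as many male C57BL/6 mice of wild-type genotype, 3 to a group. In bulk tissue fewer cells of a type and less RNA per cell cannot be told apart. Con mice were not irradiated and received vehicle, called saline in the design text and PBS in the sample labels. IR mice received 13 Gy, given to the abdomen by the design text and to the total body by the treatment protocol. IR+CF-2 mice received the same 13 Gy and 4 intraperitoneal doses of CF-2 at 7.5 mg/kg, the first 1 h before irradiation and the others 24, 48 and 72 h after it. All colons were taken 84 h after irradiation, from mice of 8 weeks by the design text and of 6 weeks by the protocol. CF-2 is known here by its code name alone, no mice received it without irradiation, and the stretch of colon sampled is not given in the sources used here. Libraries are named by group and label number, 2 to 4 in Con and IR and 1 to 3 in IR+CF-2, and no label says that equal numbers belong together.

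Plasminogen is a circulating proenzyme made mainly by the liver. The activators tPA (gene Plat) and uPA (gene Plau) cut it to plasmin, which dissolves fibrin and opens extracellular matrix, and the receptor uPAR (gene Plaur) holds uPA at the cell surface. Most serpins are suicide inhibitors: a protease cuts an exposed loop of the serpin and is then trapped in a covalent complex. Serpins control the activators, plasmin, thrombin, complement, granzymes and neutrophil proteases, while a few, such as maspin and the collagen chaperone HSP47, inhibit no protease. Tissue factor (gene F3) starts clotting, which thrombomodulin (gene Thbd) and the endothelial protein C receptor (gene Procr) restrain.

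Sequencing depth was 34.4 to 44.3 M counts per library. Epithelial markers, none of them at 0 throughout, summed to between 12290 and 15570 CPM (counts scaled to a common library total) in the 9 libraries. A floor of 3 counts in a library corresponded to 0.0677 to 0.0871 CPM, and covers counting error only. Counts of calls without Con 3, IR 4 and IR+CF-2 2, libraries known from earlier results to stand apart, are given with the limits.

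Of the 56 genes, 30 had enough counts to be tested and 26 did not. Serpina3i and Serpinb9b passed this filter only through the IR+CF-2 libraries, where they are high, and Serpina1e only through Con. In the edgeR quasi-likelihood fit (Benjamini-Hochberg adjusted p under 0.05 over 19174 genes, the meaning of "called" below), 10 of the 30 were called higher in IR+CF-2 than in Con and none was lower. Among them were Plat, Plau, Plaur, F3, Procr, Serping1, Serpina3n, Serpina3m and Serpina3i. Over all genes tested 11.2% were called higher and 7.95% lower in that comparison. IR+CF-2 against IR called 1 member higher, Plat, and none lower, beside 0.0574% and 0.245% of all genes. For IR against Con no member was called in either direction by edgeR, beside 2.37% and 0.845% of all genes. There, 5 members were higher and 1 lower at an unadjusted p under 0.05, beside 15.7% and 8.2% of all genes. DESeq2 called 4 higher there (F3, Plaur, Serpina3m and Serpina3n) and 0 lower, beside 7.52% and 4.45% of the genes to which it gave an adjusted p. In IR+CF-2 against IR it called 7 higher and 0 lower, beside 2.56% and 2.96%, and in IR+CF-2 against Con 14 higher and 1 lower, beside 15.8% and 12%. By the unadjusted p, IR+CF-2 against IR held 11 members higher and 2 lower, beside 6.48% and 8.08%, and IR+CF-2 against Con 14 higher and 2 lower, beside 20.1% and 15.5%. The 3 comparisons share their groups of mice and are not independent of each other.

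Per gene length, the most abundant members were cytosolic serpins of clade b. Serpinb1a, an inhibitor of neutrophil elastase and cathepsin G, had 229.7 ± 10.7 FPKM (reads scaled by library total and gene length) in Con, 226 ± 27.9 with IR alone and 216 ± 38.1 with IR+CF-2 (SD, n = 3 each). Serpinb6a, an inhibitor of cathepsin G, followed with 102 ± 9.99, 87.6 ± 8.14 and 80.4 ± 4.16 FPKM. In Con these 2 genes held 71.6 ± 3.31% of the summed FPKM of the 56 members. Their share was 54.1, 61.8 and 76.5% in IR 2, 3 and 4, and 35.7, 45.8 and 49.8% in IR+CF-2 1, 2 and 3. All 3 IR+CF-2 shares thus lay below every Con and IR share, while the summed FPKM of the set was 447 to 476 in Con, 402 to 568 in IR and 579 to 744 in the IR+CF-2 mice.

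Serpina3n, an inhibitor of granzyme B and elastase in mice, stood at 8.64 ± 1.28 FPKM in Con, 25.9 ± 14.7 with IR alone and 89.6 ± 30.2 with IR+CF-2. In the treated mice its mean was above that of Serpinb6a, with SDs that overlap. Serping1 had 29.9 ± 6.55, 30.2 ± 16.2 and 81.2 ± 21.5 FPKM in Con, IR and IR+CF-2. Tissue factor F3 went from 7.09 ± 1.42 FPKM in Con to 31.5 ± 19.5 in IR and 36 ± 11.9 in IR+CF-2. At the low end, antithrombin Serpinc1 had about 0.1 FPKM in each group.

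**Figure D1:**
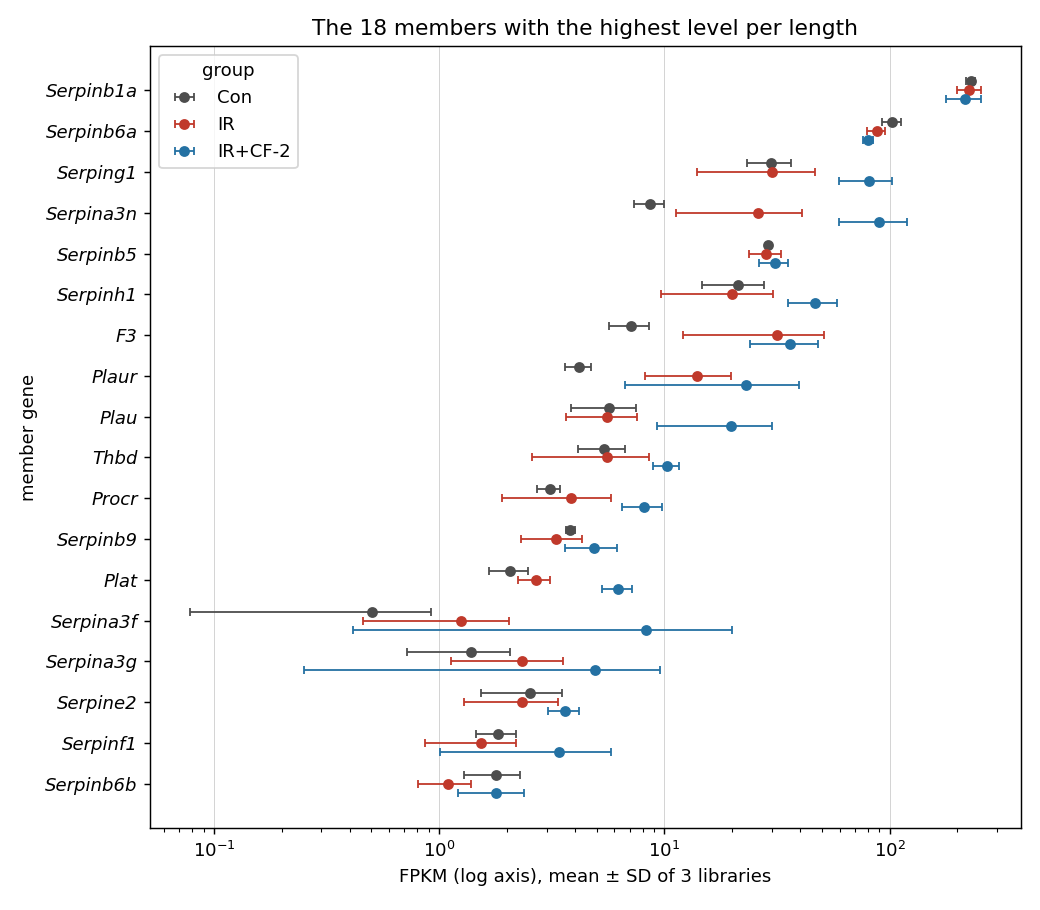
Level per gene length (FPKM, log axis, mean ± SD of 3 libraries) of the 18 members with the highest mean over the 9 libraries, in Con (grey), IR (red) and IR+CF-2 (blue), with lower whiskers shortened where the SD nears or exceeds the mean. Points of the 3 groups lie close together for Serpinb1a, Serpinb6a and Serpinb5, while Serpina3n lies at 8.64 FPKM in Con and 89.6 in IR+CF-2.

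Plat encodes tissue plasminogen activator, known from endothelial cells and neurons. Its level was 15.6, 10.8 and 12.3 CPM in Con 2, 3 and 4, 19.8, 15.9 and 14.5 CPM in IR 2, 3 and 4, and 44.5, 39.2 and 33 CPM in IR+CF-2 1, 2 and 3. The 3 treated libraries stood above all 6 others, and IR and Con overlapped. Plat was the only member called in IR+CF-2 against IR (log2 fold change 1.13 ± 0.17, standard error, edgeR adjusted p = 0.0403), and against Con it rose by 1.5 ± 0.17 (edgeR adjusted p = 0.00578). IR against Con gave 0.37 ± 0.17 (edgeR adjusted p = 0.213). The call against Con remained in each of the 9 fits that left out a library. That against IR was lost in 7 of the 9, all but those without IR+CF-2 2 or IR+CF-2 3, with log2 fold changes from 1.01 to 1.24.

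Plau encodes urokinase, made by fibroblasts, myeloid cells and injured epithelium. It had 16.9, 14.7 and 8.57 CPM in Con, 17.1, 14.3 and 8.15 CPM in IR, and 72.8, 42.8 and 24.1 CPM in IR+CF-2 1, 2 and 3. Con and IR covered the same range, and the treated libraries lay above both but far from each other. The increase against Con was 1.69 ± 0.43 (edgeR adjusted p = 0.0285). Against IR the estimate was 1.74 ± 0.43 without a call (edgeR adjusted p = 0.127). Without IR+CF-2 1, the highest library, the increase against Con was 1.21 and no longer called (edgeR adjusted p = 0.0916).

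The uPA receptor gene Plaur, active in monocytes, neutrophils and wound-edge epithelium, had 10.5, 12.5 and 9.74 CPM in Con. It had 37.6, 50.9 and 20.9 CPM in IR 2, 3 and 4 and 108, 24.8 and 48.5 CPM in IR+CF-2 1, 2 and 3. Every irradiated library, with or without CF-2, lay above the Con range, and the 2 irradiated groups overlapped. IR+CF-2 against Con gave 2.37 ± 0.51 (edgeR adjusted p = 0.0191), and 1.64 without IR+CF-2 1 (edgeR adjusted p = 0.0501). In IR against Con the estimate was 1.72 ± 0.504 (edgeR adjusted p = 0.086), and in IR+CF-2 against IR it was 0.65 ± 0.49 (edgeR adjusted p = 0.586).

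Plasminogen itself, Plg, reached at most 2 counts in any library, below the floor of 3 counts, so that no level or difference was detectable at this depth.

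Serpine2, Serpinf2 and Serpini1 were not called by edgeR in any comparison. Serpine2, protease nexin-1, which inhibits thrombin and urokinase, had 12 to 28.2 CPM in Con, 12.3 to 28.8 in IR and 24.8 to 33.9 in the IR+CF-2 mice (0.44 ± 0.33 for IR+CF-2 against Con, edgeR adjusted p = 0.378). Serpinf2, the plasmin inhibitor alpha-2-antiplasmin, had 0.837, 0.636 and 0.796 CPM in Con and 0.445, 0.554 and 0.181 CPM in IR+CF-2, groups that did not overlap, with a log2 fold change of -1.04 ± 0.54 (edgeR adjusted p = 0.198). Serpini1, neuroserpin, a tPA inhibitor of neurons, had 2.81 to 4.78 CPM in Con and 1.43 to 4.71 in IR+CF-2. Serpinb2, an inhibitor of urokinase, was at or above 3 counts in only 3 libraries and had at most 20 counts. Serpine3 reached the floor in 2 libraries, with 3 counts at most.

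**Figure D2:**
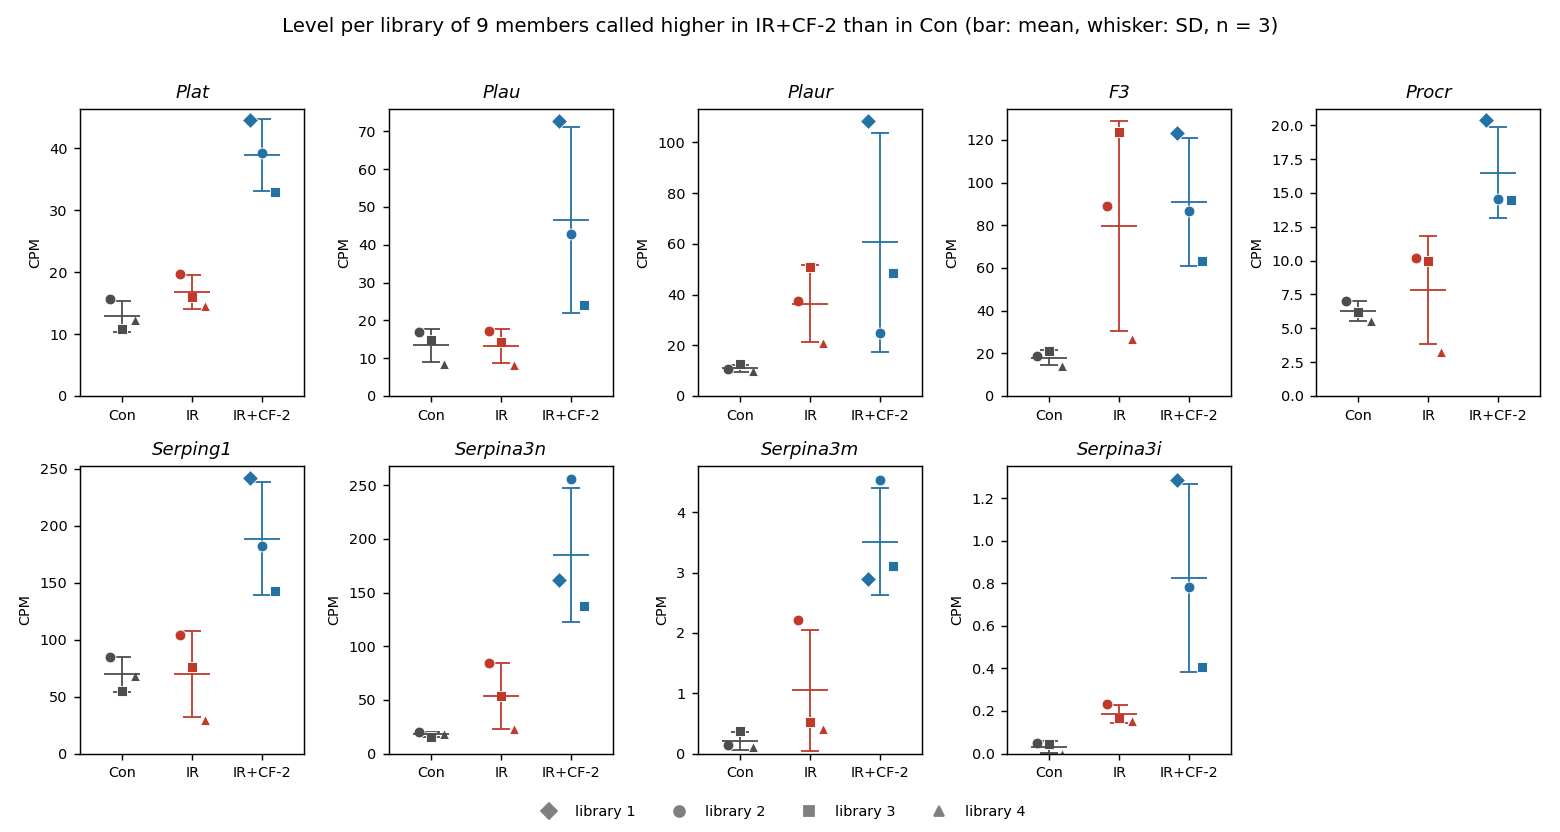
Level (CPM, axis from 0) of 9 members called higher in IR+CF-2 than in Con, 1 point per library, with mean (bar) and SD (whisker) of 3 libraries in Con, IR and IR+CF-2; marker shapes give the label numbers, which pair no libraries. Plat, Plau, Procr and Serping1 show overlapping Con and IR ranges with the treated libraries above both, while F3 and Plaur already stand above Con in IR.

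F3, tissue factor, is the cell-surface cofactor that triggers thrombin formation. It had 18.6, 21.1 and 14 CPM in Con, 88.9, 123.6 and 26.5 CPM in IR 2, 3 and 4, and 123, 86.5 and 63.2 CPM in IR+CF-2. All 6 irradiated libraries exceeded the Con range, and IR 4 was the lowest of them. Against Con, F3 rose in IR+CF-2 by 2.24 ± 0.49 (edgeR adjusted p = 0.0193). In IR the estimate was 2.12 ± 0.49, just short of a call (edgeR adjusted p = 0.0517). It was past the threshold in 2 of the 9 fits without a library, at 2.52 without IR 4 (edgeR adjusted p = 0.00855). Without IR 3 it was 1.62 (edgeR adjusted p = 0.259). IR+CF-2 and IR differed by 0.12 ± 0.46 (edgeR adjusted p = 0.935), a standard error that leaves room for a difference of either sign.

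Among the anticoagulant receptors, Procr, which presents protein C for activation, had 7.04, 6.2 and 5.58 CPM in Con, 10.2, 10 and 3.24 CPM in IR, and 20.4, 14.6 and 14.5 CPM in IR+CF-2. The treated libraries stood clear of the other 6. Procr rose against Con by 1.29 ± 0.37 (edgeR adjusted p = 0.04), a call kept in 2 of the 9 fits without a library, those without IR 4 or IR+CF-2 2. Against IR the estimate was 1.003 ± 0.36 (edgeR adjusted p = 0.261). Thbd, the thrombin receptor that turns thrombin toward protein C, had 21.8, 23.9 and 14.7 CPM in Con, 31.4, 21.6 and 9.18 CPM in IR, and 38.6, 43 and 33.1 CPM in IR+CF-2. Here too the treated libraries did not overlap with either group, but the estimate of 0.81 ± 0.36 against Con was not called (edgeR adjusted p = 0.143). The ratio of F3 to Thbd in FPKM was 1.26 to 1.4 in Con, 4.17 to 8.41 in IR and 2.82 to 4.7 in the IR+CF-2 mice.

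The serpins that inhibit thrombin in plasma were scarce. Serpinc1 had 0.471 to 1.3 CPM in Con, 0.714 to 1.1 in IR and 0.667 to 1.17 in the IR+CF-2 mice, with a difference of 0.03 ± 0.41 between IR+CF-2 and Con (edgeR adjusted p = 0.969). Heparin cofactor II, Serpind1, reached at most 8 counts. Serpina10, which inhibits factor Xa with protein Z, had 7.76 CPM in IR+CF-2 1 but 0.302 and 1.45 CPM in IR+CF-2 2 and 3.

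F3 and Plaur were among the 6 tested members with letters of the AP-1 motif upstream. Their sequences are shown with that motif (TGANTCA, either strand, a palindrome apart from its middle base) in capitals, for the 250 bases before the RefSeq start on GRCm38.p6, plus strand, 5′ to 3′. The F3 window is chr3:121723287-121723536 and the Plaur window chr7:24462233-24462482.
F3: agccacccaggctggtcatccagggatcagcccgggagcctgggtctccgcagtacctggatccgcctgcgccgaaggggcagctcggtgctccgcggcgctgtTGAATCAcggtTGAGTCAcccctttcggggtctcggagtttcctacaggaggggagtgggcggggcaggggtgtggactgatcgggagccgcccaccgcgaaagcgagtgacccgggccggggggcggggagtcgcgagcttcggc
Plaur: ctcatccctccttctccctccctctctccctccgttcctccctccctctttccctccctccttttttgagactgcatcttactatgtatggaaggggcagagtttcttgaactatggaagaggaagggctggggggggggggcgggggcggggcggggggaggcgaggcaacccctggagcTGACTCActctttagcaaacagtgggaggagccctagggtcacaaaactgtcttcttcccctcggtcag
F3 held 2 matches and Plaur 1. Procr, Serpinb5, Serpinb8 and Serpina1b held 1 each, the last 3 without a call by edgeR in any comparison. A link of these letters to the levels was not tested. Of the 10 called members 5 had a promoter in the RefSeq table, and 3 of these 5 held the motif, as did 6 of the 22 tested members in the table and 6.75% of its 32851 windows. The other motifs searched, on both strands, were SMAD (CAGACA, 17.1% of all windows), HIF (ACGTG, 16.6%), the GC box (GGGCGG, 32.7%), STAT (TTCNNNGAA, 7.02%) and the NF-kB consensus (3.9%). Among the 5 called members in the table, the GC box was found in F3 and Plaur, STAT and the NF-kB consensus in Serpina3i, and SMAD and HIF in none. GC box letters overlap no AP-1 letters, and matches are letters only, since no binding was measured.

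Serping1 encodes the C1 inhibitor, which restrains complement C1 and the kallikrein pathway. It had 85.1, 54.7 and 68.5 CPM in Con, 104, 76.2 and 29.8 CPM in IR, and 241.6, 182 and 142 CPM in IR+CF-2. Its treated libraries lay above the other 6, whose groups overlapped. The rise against Con was 1.35 ± 0.38 (edgeR adjusted p = 0.0377), kept in 3 of the 9 fits without a library, those without IR 2, IR 4 or IR+CF-2 2. Against IR the estimate was 1.36 ± 0.38 (edgeR adjusted p = 0.163).

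Serpinh1, Serpinf1 and Serpinb5, which inhibit no protease, were not called by edgeR in the fit of all 9 libraries. Serpinh1, the collagen chaperone HSP47 of fibroblasts, had 67.2, 35.2 and 53.1 CPM in Con, 74.1, 49.5 and 23.3 CPM in IR, and 119, 139.9 and 84.3 CPM in IR+CF-2. The treated group did not overlap with either, and the estimate against Con was 1.05 ± 0.36 (edgeR adjusted p = 0.0734). Serpinh1 was past the threshold against Con with the compared groups alone (edgeR adjusted p = 0.0399) and without IR 4 (edgeR adjusted p = 0.028), and in DESeq2 against both other groups. Serpinf1, the anti-angiogenic PEDF, had 14.5 CPM in IR+CF-2 2 and 5.21 and 4.31 CPM in IR+CF-2 1 and 3. Maspin, Serpinb5, stayed within 78.7 to 80.1 CPM in Con, 65.3 to 90 in IR and 73.1 to 98.1 in the IR+CF-2 mice, with differences of -0.04 ± 0.14, 0.04 ± 0.14 and -0.002 ± 0.142 in the 3 comparisons.

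Of the 21 clade a genes, 20 lie in a cluster of 0.8 Mb on chromosome 12 (GRCm38, 103614786 to 104414329, GENCODE M21), and 9 of the 20 were tested. Serpina3n, Serpina3m and Serpina3i are the called members of this cluster and all belong to its Serpina3 end. Serpina3n had 20.2, 15 and 18.2 CPM in Con, 84.2, 53.2 and 23.3 CPM in IR 2, 3 and 4, and 162, 255.6 and 137 CPM in IR+CF-2. The groups formed 3 steps without overlap, with IR 4 just above the Con range. Serpina3n rose in IR+CF-2 against Con by 3.28 ± 0.41 (edgeR adjusted p = 0.00751), a call kept in all 9 fits without a library. IR against Con gave 1.56 ± 0.39 (edgeR adjusted p = 0.0612), past the threshold in 2 of the 9 fits without a library. It was 1.90 without IR 4 (edgeR adjusted p = 0.0136) and 1.13 without IR 2 (edgeR adjusted p = 0.158). IR+CF-2 against IR gave 1.72 ± 0.39 (edgeR adjusted p = 0.0979).

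Serpina3m had 0.148, 0.377 and 0.106 CPM in Con, 2.21, 0.522 and 0.411 CPM in IR, and 2.89, 4.54 and 3.12 CPM in IR+CF-2. Serpina3i was lower still, with at most 2 counts in each Con library, 6 to 8 counts in IR and 52, 31 and 18 counts in IR+CF-2. Both showed the order of Serpina3n, each group apart from the next. Against Con, the IR+CF-2 change was 3.91 ± 0.73 for Serpina3m (edgeR adjusted p = 0.0135). It was 4.69 without Con 3, the highest Con library, and 3.67 and 3.59, no longer called, without Con 2 or Con 4 (edgeR adjusted p = 0.0533 and 0.0568). That of Serpina3i was fitted at 4.42 ± 0.73 (edgeR adjusted p = 0.0102), an estimate that depends on how its near-zero Con counts are handled. Serpina3i was tested only because of its counts in IR+CF-2, and a filter of 1 CPM in 3 libraries removed it.

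In Serpina3f and Serpina3g 1 treated mouse was far above the others. Serpina3f had 49.5 CPM in IR+CF-2 1 and 1.76 and 5.87 CPM in IR+CF-2 2 and 3, against 0.584 to 2.26 CPM in Con. Serpina3g, a cytosolic inhibitor of cathepsins, had 21.7 CPM in IR+CF-2 1 and 4.69 and 4.67 CPM in the other treated mice, against 1.75 to 4.48 CPM in Con. Neither was called against Con (3.92 ± 1.24 and 1.71 ± 0.71, edgeR adjusted p = 0.0562 and 0.12). Without IR+CF-2 1 the Serpina3f estimate was 1.59 (edgeR adjusted p = 0.275).

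The Serpina3 genes are closely similar copies, and how reads that match several of them were counted is not stated, so that the split between them is uncertain. Serpina3k and Serpina3m also share a start at 104338486 in the annotation. The windows upstream of Serpina3n and Serpina3i are printed to show this likeness, with the runs of at least 12 bases that they share, in the same order, in capitals (RefSeq, GRCm38.p6, plus strand, 5′ to 3′, chr12:104406458-104406707 and chr12:104262872-104263121).
Serpina3n: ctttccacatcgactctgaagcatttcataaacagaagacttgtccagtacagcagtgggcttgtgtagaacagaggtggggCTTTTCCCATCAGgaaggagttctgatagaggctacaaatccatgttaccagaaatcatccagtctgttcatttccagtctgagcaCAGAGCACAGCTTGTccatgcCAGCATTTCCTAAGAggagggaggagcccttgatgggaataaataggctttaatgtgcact
Serpina3i: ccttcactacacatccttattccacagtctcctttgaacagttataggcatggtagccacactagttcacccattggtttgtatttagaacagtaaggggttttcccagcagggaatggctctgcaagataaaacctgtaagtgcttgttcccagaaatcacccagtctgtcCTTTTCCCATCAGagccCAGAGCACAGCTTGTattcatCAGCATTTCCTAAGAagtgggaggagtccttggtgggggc
In a global alignment 173 of 222 aligned bases were identical, 77.9%. The STAT letters were found in the windows of Serpina3i, Serpina3f and Serpina3g and not in that of Serpina3n.

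The alpha-1-antitrypsin genes at the other end of the cluster were near the limit of detection. Serpina1b, whose annotated span contains Serpina1d, had 0.236 to 0.85 CPM in Con and 0.151 to 0.361 in IR+CF-2. Serpina1e had 16, 12 and 16 counts in Con, 7, 0 and 2 in IR and 4, 2 and 5 in IR+CF-2. Its Con libraries lay above all 6 irradiated ones, with estimates of -2.11 ± 0.79 in IR and -2.11 ± 0.77 in IR+CF-2 that were not called (edgeR adjusted p = 0.152 and 0.0858). Serpina1c was at 0 in every library.

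Of the 7 tested clade b genes 0 was called by edgeR in any comparison. At an unadjusted p under 0.05, Serpinb6a was lower in IR+CF-2 than in Con, and Serpinb9b was higher in IR+CF-2 than in either other group. DESeq2 called both genes in IR+CF-2 against Con, in these directions. In Con Serpinb6a had 532.7, 614.7 and 512.7 CPM, above the 410, 440.8 and 453.8 CPM in IR+CF-2 and the 423.5, 504.8 and 493.5 CPM in IR. The estimate was -0.46 ± 0.15 (edgeR adjusted p = 0.0654), called also with upper quartile scaling. For Serpinb1a the difference between IR+CF-2 and Con was -0.19 ± 0.17 (edgeR adjusted p = 0.443). Serpinb9, which protects cells from granzyme B, had 12.9 to 14 CPM in Con, 7.69 to 14.6 in IR and 13.5 to 22.1 in the IR+CF-2 mice (0.25 ± 0.24, edgeR adjusted p = 0.505). Its neighbour Serpinb9b had 73 counts in IR+CF-2 2 and at most 15 in any other library.

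**Figure D3:**
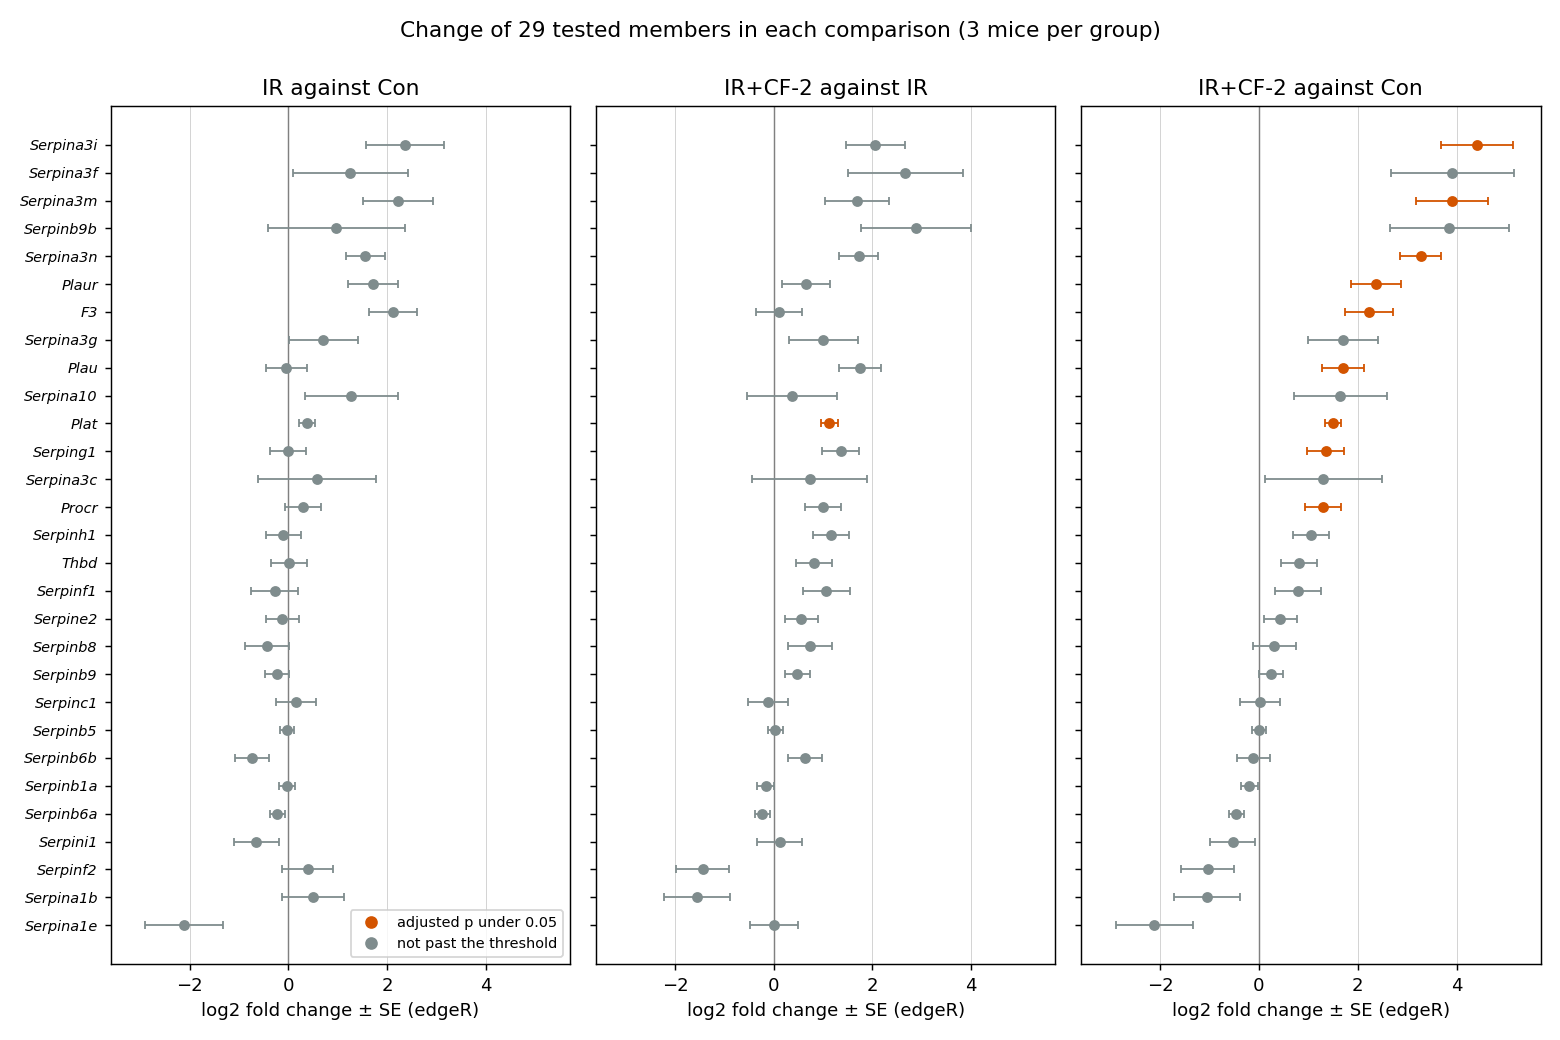
Log2 fold change ± standard error (edgeR, 3 mice per group) of 29 tested members in IR against Con, IR+CF-2 against IR and IR+CF-2 against Con, ordered by the last, with called members in orange. Orange points number 0, 1 and 9 in the 3 panels, and the clade b genes Serpinb1a, Serpinb5 and Serpinb6a have the narrowest whiskers around small values.

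Of the 26 members that were not tested, 13 were below 3 counts in every library, 2 of them (Serpina1c and Serpinb13) at 0 throughout. The highest counts among the 26 were 114 for Serpina9, a serpin of germinal centre B cells, in IR+CF-2 2 (at most 12 in the other libraries), and 24 for Serpina3k in Con 3. The median log2 fold change of the 30 tested members was 0.22 in IR against Con, 0.73 in IR+CF-2 against IR and 1.17 in IR+CF-2 against Con, beside 0.006, 0.02 and 0.02 for all genes tested. In IR+CF-2 against IR, 12 of the 30 lay higher without overlap and 1 lower, beside 9.76% and 7.01% of all genes. In IR+CF-2 against Con these numbers were 14 and 3, beside 26.3% and 14.9%, and in IR against Con 5 and 3, beside 22.4% and 14.2%.

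**Figure D4:**
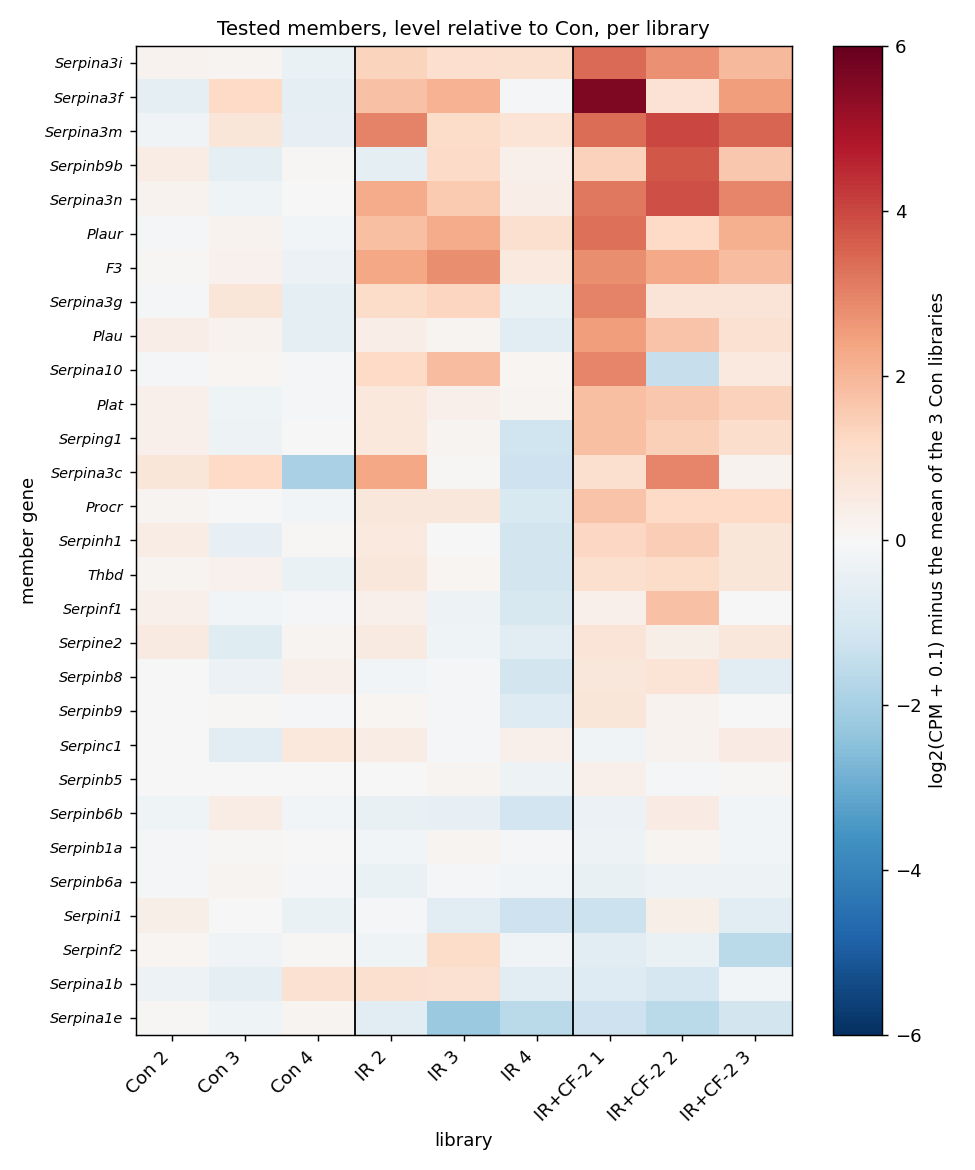
Level of 29 tested members in each library as log2(CPM + 0.1) minus the mean of the 3 Con libraries, red above and blue below Con. IR 4 is paler than IR 2 and IR 3 for Serpina3n (0.40 against 2.24 and 1.58) and F3 (0.58 against 2.33 and 2.80), and single treated mice stand out for Serpina3f (5.58 in IR+CF-2 1) and Serpinb9b (3.74 in IR+CF-2 2).

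Among partners of the system, IR+CF-2 against Con called 7 of 39 tested partners higher and 3 lower, beside 11.2% and 7.95% of all genes. Of fibrin and clotting factors 3 of 11 were higher, namely factor X (F10, 2.97 ± 0.67), its cofactor factor V (F5, 1.23 ± 0.304) and protein S (Pros1, 1.21 ± 0.35). F5 was also the 1 partner of 39 called in IR against Con (1.87 ± 0.31, edgeR adjusted p = 0.0304), beside 2.37% of all genes higher and 0.845% lower. Of 6 inhibitors that are not serpins Tfpi2 and Spint2 were lower (-2.07 ± 0.36 and -0.75 ± 0.1998). Of 13 receptors the thrombin receptor F2r (1.22 ± 0.33) and the integrin gene Itgav (0.84 ± 0.25) were higher and the plasminogen receptor Plgrkt lower (-0.77 ± 0.2006). Of 9 growth factors that these proteases can activate, Hgf (2.52 ± 0.56) and Tgfb1 (1.06 ± 0.26) were higher. In IR+CF-2 against IR none of these 39 genes was called by edgeR. At an unadjusted p under 0.05, 11 were higher and 6 lower there, beside 6.48% and 8.08% of all genes. DESeq2 called 5 higher and 3 lower, beside 2.56% and 2.96%. In IR against Con, 8 of the 39 were higher and 2 lower at an unadjusted p under 0.05, beside 15.7% and 8.2%. DESeq2 called 5 higher and 2 lower in that comparison, beside 7.52% and 4.45%.

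Proteases that serpins inhibit were also read from a list, of which 18 genes were tested. In IR+CF-2 against Con 5 were higher and 3 lower, beside 11.2% and 7.95% of all genes. Granzymes of cytotoxic lymphocytes were lower, with Gzma at 18.6 ± 10.1 CPM in Con and 0.939 ± 0.6 in IR+CF-2 (-4.43 ± 0.64, edgeR adjusted p = 0.0083) and Gzmb at 14.1 ± 10.5 and 1.35 ± 1.02 CPM (-3.51 ± 0.72, edgeR adjusted p = 0.0168). The transmembrane protease Tmprss2 was higher (1.33 ± 0.28, edgeR adjusted p = 0.0176). The complement proteases that the C1 inhibitor binds, C1s1 and C1ra, were higher (1.29 ± 0.33 and 1.39 ± 0.38), as were Cma1 and Prtn3. Cma1 had 0 to 0.0943 CPM in Con, 0.1285 to 0.3485 in IR and 0.429 to 95.2 in the treated mice. Its estimate of 9.15 ± 2.26 depends on how its near-zero Con counts are handled. Klk1 was lower (-1.6 ± 0.42). Of the neutrophil proteases, Prtn3 had 0.0471 to 0.0985 CPM in Con, near the floor of 3 counts. It had 0.206 to 0.494 CPM in IR and 0.247 to 0.454 in the IR+CF-2 mice. Elane stayed under 3 counts in every library. No gene of this list was called by edgeR in the other comparisons. DESeq2 called 3 higher and 1 lower in IR+CF-2 against IR, beside 2.56% and 2.96% of all genes. In IR against Con it called 1 lower, beside 4.45%. At an unadjusted p under 0.05, 6 were higher and 3 lower in IR+CF-2 against IR, beside 6.48% and 8.08%. In IR against Con 1 was higher and 3 lower, beside 15.7% and 8.2%.

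Markers of other cells differed between the groups. Neutrophil markers were called higher in IR+CF-2 against Con for 9 of 10, with a summed level of 3.13 to 5.42 CPM in Con, 15.6 to 81.4 in IR and 225.6 to 357 in the IR+CF-2 mice, none at 0 throughout. Macrophage markers were called higher for 7 of 10, summing to 129 to 178 CPM in Con, 145 to 218 in IR and 218 to 426 in the IR+CF-2 mice. Fibroblast markers were called higher for 1 of 10 by edgeR and 4 by DESeq2, and 5 were higher at an unadjusted p under 0.05. They summed to 660.3 to 1492 CPM in Con, 533 to 1552 in IR and 1726 to 3521 in the IR+CF-2 mice. None of 11 endothelial and none of 8 smooth muscle markers was called by edgeR or DESeq2 in IR+CF-2 against Con, and none had an unadjusted p under 0.05. In IR against Con, 5 of 8 smooth muscle markers were lower at an unadjusted p under 0.05, beside 8.2% of all genes. DESeq2 called 3 of them lower, beside 4.45%, and edgeR 0. Smooth muscle markers summed to 2228 to 6044 CPM in Con, 1354 to 3566 in IR and 3238 to 5022 in the IR+CF-2 mice. Endothelial markers summed to 118 to 209.6 CPM in Con, 71.5 to 149 in IR and 146 to 296 in the IR+CF-2 mice. Of 9 epithelial markers in IR+CF-2 against Con, Krt18 was called higher (0.97 ± 0.28) and Epcam lower (-0.48 ± 0.145, edgeR adjusted p = 0.0498). Squamous markers were called higher in that comparison for 4 of 8 tested. They summed to 6.15 to 6.5 CPM in Con, 8.04 to 21.1 in IR and 13.4 to 24.5 in the IR+CF-2 mice. T and NK cell markers were called lower in IR+CF-2 against Con for 7 of 9 and in IR against Con for 3 of 9, and summed to 29.6 to 53.8 CPM in Con, 12.9 to 13.7 in IR and 10.2 to 13.5 in the IR+CF-2 mice. B and plasma cell markers were called lower for 4 of 8 in IR+CF-2 and 5 of 8 in IR against Con, and summed to 1051 to 1600 CPM in Con, 577 to 747 in IR and 1169 to 1462 in the IR+CF-2 mice. In IR+CF-2 against IR edgeR called no marker of any of these lists. At an unadjusted p under 0.05, 7 of 10 neutrophil, 6 of 10 macrophage and 5 of 10 fibroblast markers were higher there, beside 6.48% of all genes. None of these 3 lists had a marker lower. DESeq2 called 5, 1 and 2 of them higher, beside 2.56%. Of 9 epithelial markers 2 were lower there at an unadjusted p under 0.05, beside 8.08%. Of 8 tested hepatocyte markers 1, Apob, was called lower in IR+CF-2 against Con. IR+CF-2 2 had 382 CPM of hepatocyte markers (63.8 to 189 in the other 8 libraries). It had 157 CPM of acinar pancreas markers (20.8 to 50.1 in the others) and 67.8 of mesothelium markers (10.1 to 24.2). It was also the highest of the 9 for fibroblast (3521 CPM), macrophage (426), endothelial (296), squamous (24.5) and gut position (838) markers. The same library was the highest of the 9 for Serpina3n, Serpina3m, Serpinh1, Serpinf1 and Thbd. Without it alone, Serpina3n and Serpina3m were still called in IR+CF-2 against Con. The part of these cells in the members' values was not tested.

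Genes of gut position also moved with the groups. Their summed level was 213 to 446 CPM in Con, 146 to 175 in IR and 393 to 838 in the IR+CF-2 mice. With the log2 CPM of Hoxa13 as a term in the fit, no member was called in any comparison by edgeR, and over the whole table IR+CF-2 against Con called 0 genes higher and 6 lower. The IR+CF-2 against Con estimates were then 1.24 ± 0.22 for Plat and 2.80 ± 0.63 for Serpina3n (edgeR adjusted p = 0.15 and 0.158), but 0.86 ± 0.54 for Serping1 and 0.37 ± 0.45 for Serpinh1 (edgeR adjusted p = 0.402 and 0.662). Against IR they were 0.69 ± 0.29 for Plat, 0.98 ± 0.72 for Serpina3n, 0.56 ± 0.67 for Serping1 and 0.03 ± 0.58 for Serpinh1. Each was below its value without the term (edgeR adjusted p = 0.999 for each). F3, Plaur and Serpina3m had estimates above those without the term in both comparisons. Against Con these were 2.27 ± 0.79, 2.59 ± 0.81 and 4.34 ± 1.28. Plau, Procr and Serpina3i had estimates below those without the term in both. For F3, Plaur, Serpina3m, Plau, Procr and Serpina3i, each shift was smaller than the standard error of the estimate with the term. F3 against IR, for example, went from 0.12 to 0.16 ± 0.92. Leaving out Con 3, IR 4 and IR+CF-2 2 together gave 12 members higher in IR+CF-2 than in Con, beside 20.3% of all genes in that fit, and 2 higher in IR+CF-2 than in IR (Plat and Serpina3n), beside 1.19%. It gave 4 of 30 members higher in IR than in Con, 13.3%, which is below the 15.1% of all genes. Plat, Serpina3n and Serpina3i remained called in IR+CF-2 against Con in all 9 fits without a single library. Serpina3i was tested only through its IR+CF-2 counts. Serpina3m was called in 7 of the 9, lost without Con 2 or Con 4. F3, Plau and Plaur were called in 5, each being lost without any 1 of the Con libraries or IR+CF-2 1.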

How the data were processed

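Raw counts and FPKM values stand side by side in the deposited table, per the file headers. HISAT2, featureCounts and DESeq2, and the builds mm10 and GRCm38, are named by the submitters' processing notes. Tool versions, the annotation release, the strand setting and the treatment of reads matching several genes are not given there. Poly(A) RNA was sequenced in pairs, per the labels' protocols. FPKM values made by the authors were used for levels between genes, and CPM was computed from the counts and library totals. The 9 columns matched the 9 samples by library name.

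Counts were fitted in R 4.3.3 with edgeR 4.0.16 (filterByExpr, TMM factors from 0.922 to 1.053, quasi-likelihood F-test with robust = TRUE) in 1 fit of 9 libraries with group as the only term, with 19174 of 33539 genes tested. Tests were 2-sided, with p adjusted by Benjamini-Hochberg over all genes tested. Standard errors are absolute log2 fold changes over the square root of F. Labels call the samples biological replicates. On simulated data with 200 changed genes the fit recovered 18 to 25% of 2-fold and 60 to 69% of 4-fold changes, with 3.7 to 6.67% of calls false.

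Coordinates come from GENCODE M21 on GRCm38, which holds all 56 members, and promoters from RefSeq tables. The members, gene lists and motifs were chosen with earlier results of these data known. Members were named if they are 1 of the 7 genes without a Serpin symbol, were called, had an unadjusted p under 0.05 at 1 CPM or more (up to 12 a comparison), were among the 10 highest by FPKM, or are main inhibitors by role. Serpini1, Serpine3, Serpina10, Serpinf1, Serpina3k, Serpina1b, Serpina1c, Serpina1e, Serpina9, Serpina3h, Serpinb8, Serpinb9b, Serpinb10 and Serpinb13, and the proteases Cma1, C1s1, C1ra, Klk1, Prtn3 and Elane, fall outside this rule and were chosen after their values were seen. Protein sequences were not used here, and 1 tested member, part of every count, is not reported here by name. Alternatives were RLE and upper quartile scaling, other filters, DESeq2 1.42.0, limma-voom (limma 3.58.1), a fit on compared groups alone, robust = FALSE, the library number as a block, a threshold of 0.01, a Hoxa13 term (log2 of CPM plus 0.5) and fits without libraries.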

Additional observations from a re-analysis of the deposited data

How the results depend on the processing

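For IR+CF-2 against Con, 10 members were higher. The count was 4 to 12 without a single library, 6 without a filter, 2 at an adjusted p under 0.01 and 0 with the Hoxa13 term. The whole table had 358 to 3585, 1708, 190 and 0 genes higher there, beside 2152 in the main fit. The block aside, the member count stayed within 1.5 times of 10 in the other alternatives (up to 14 with DESeq2, beside 3020 genes). Members lower numbered 0, and 1 with upper quartile scaling, with DESeq2 and with the compared groups alone. The whole table had 1853, 2294 and 1175 genes lower at these 3 settings. For IR+CF-2 against IR, 1 member was higher. The count was 0 to 2 without a single library, 2 without a filter or without Con 3, IR 4 and IR+CF-2 2, 7 with DESeq2, and 0 with the compared groups alone, with the Hoxa13 term and at 0.01. The whole table had 0 to 144 genes higher without a single library, 31 without a filter and 229 without the 3 libraries together. It had 461 with DESeq2, 2 with the compared groups alone, and 0 with the Hoxa13 term and at 0.01. For IR against Con no member was called. Without a single library 0 to 3 were higher, beside 0 to 2319 genes of the whole table. A filter of 1 CPM in 3 libraries gave 1 beside 555 genes, and the compared groups alone gave 3 beside 1580. DESeq2 gave 4 beside 1436 genes, and the fit without the 3 libraries together gave 4 beside 2915. The causes were not tested. Calls at any of these settings rest on 3 mice a group or fewer, and a member below the floor of 3 counts cannot be compared.

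Same-numbered libraries had correlations of deviations from 0.04 to 0.257 over 7 pairs, not all above 0.1. Libraries of different numbers had -0.212 to 0.257, most of them negative. These values do not settle whether the numbers are pairs. No label states it, and the numbers were not taken as pairs. With the library number as a replicate block, 4 members were higher in IR+CF-2 than in Con (among them Plat, Plaur and Serpina3n). In IR+CF-2 against IR 0 were higher, and in IR against Con 2 were (F3 and Plaur). The whole table then had 213, 1 and 669 genes higher in these 3 comparisons. The Serpina3f estimate in IR+CF-2 against IR reversed from 2.67 to -0.21, neither value being called.

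Over the whole table, the counts higher and lower were 454 and 162 in IR against Con, ranging from 0 to 2915 and from 1 to 1896 over the alternatives. They were 11 and 47 in IR+CF-2 against IR (0 to 461 and 0 to 654), and 2152 and 1525 in IR+CF-2 against Con (0 to 3913 and 6 to 3708).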
